A study of Drosophila melanogaster with 5 samples.

Results

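Structural cuticle protein genes encode the proteins that, with chitin fibres, form the insect exoskeleton. Members were taken as the probe sets whose array annotation names a single gene with a symbol starting with Cpr, Ccp84A, Lcp, Acp65A, Edg78E, Edg84A, Edg91, Cpap, Twdl or Pcp, with the brightest probe set standing for each gene. This gave 92 genes, from 98 such probe sets, among the 10845 genes and 13966 probe sets measured. Of the 92 genes 58 carried Cpr symbols, 20 were Tweedle (Twdl) genes, 5 were Lcp, 4 Ccp84A and 3 Edg genes, and Pcp and Acp65Aa stood alone; no gene with a Cpap symbol was found. Fly (Drosophila melanogaster) pupae were dissected 80 h after they formed, and each RNA extraction, made separately per array, pooled 15 to 20 heads. There were 2 arrays of Canton S, used as the wild type, and 3 of otd-uvi, which carries an allele of orthodenticle (otd, also oc) called eye-specific in the labels. Both groups were untreated as far as the labels say. Each group was 1 strain, so strain background is part of every difference, and the sex of the heads was not available here. The comparison asked which transcripts of the developing head differ when Otd, a homeodomain transcription factor of photoreceptors, is altered.

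Most cuticle proteins belong to the CPR family, named for the Rebers and Riddiford consensus, a stretch that binds chitin. Tweedle proteins are a separate insect family of cuticle components and help to set body shape. Cuticle genes lie in tandem clusters, and flies use different members for the larval, pupal and adult cuticles under the control of ecdysone pulses. In late pupae the head epidermis is laying down adult cuticle, and in the eye the corneal lens, itself a cuticle, is secreted by cone and pigment cells. The whole head was measured, so fewer cells of a type and less RNA per cell cannot be told apart.

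The heads carried most of the measured tissue markers. All 5 measured photoreceptor markers, and all 3 of glia, 3 of muscle and 3 of fat body, exceeded the controls on every array. Of the 5 epidermal markers 3 did so, and mwh did so on no array. Neurons had 3 of 4 measured markers above the controls on every array, hemocytes 2 of 3 and trachea 1 of 2. The controls are 8 mouse and yeast probe sets with no target in fly RNA, and the brightest of them read 9.30 and 9.13 for Canton S against 22.9, 11.2 and 16.2 for otd-uvi. Their median was 3.38 ± 0.434 (SD, n = 2) in Canton S and 7.39 ± 0.472 (SD, n = 3) in otd-uvi (two-sided exact permutation p = 0.1, which is the lowest value 2 against 3 arrays can reach). The log2 signal ratio between 3-prime and 5-prime control probe sets, averaged over them and known to rise when RNA is degraded, was 1.41 and 1.37 for Canton S against 1.32, 1.68 and 1.88 for otd-uvi (two-sided exact permutation p = 0.4). With 5 arrays the precision is limited, and a signal also depends on the probe sequences, so signals are compared between arrays for 1 probe set and not between genes.

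No cuticle protein gene passed the test, yet most had slightly higher signals in otd-uvi. With limma on log2(signal + 8), adjusted by Benjamini-Hochberg over all 13966 probe sets, 0 of the 92 genes had an adjusted p under 0.05, where 0.773% of all probe sets did, 0.322% being higher in otd-uvi and 0.451% lower. At an unadjusted p under 0.05 there were 17 genes with higher values in otd-uvi, 18.5% of the 92 against a background of 7.77% of probe sets. That count was 11 with the replicate number as a block, a fit in which the share of all probe sets was not counted. There were 4 with lower values, 4.35% against 7.27%, and in either direction the background was 15.0%. The log2 difference, otd-uvi minus Canton S, was above 0 for 74 genes and below 0 for 18. The share above 0 was 80.4%, against 55.2% of all probe sets. The median difference of the 92 genes was 0.35, and that of all probe sets 0.05. It stood at 0.27 without Canton S replicate 2 and at 0.22 with a pseudocount 4 times larger.

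**Figure D1:**
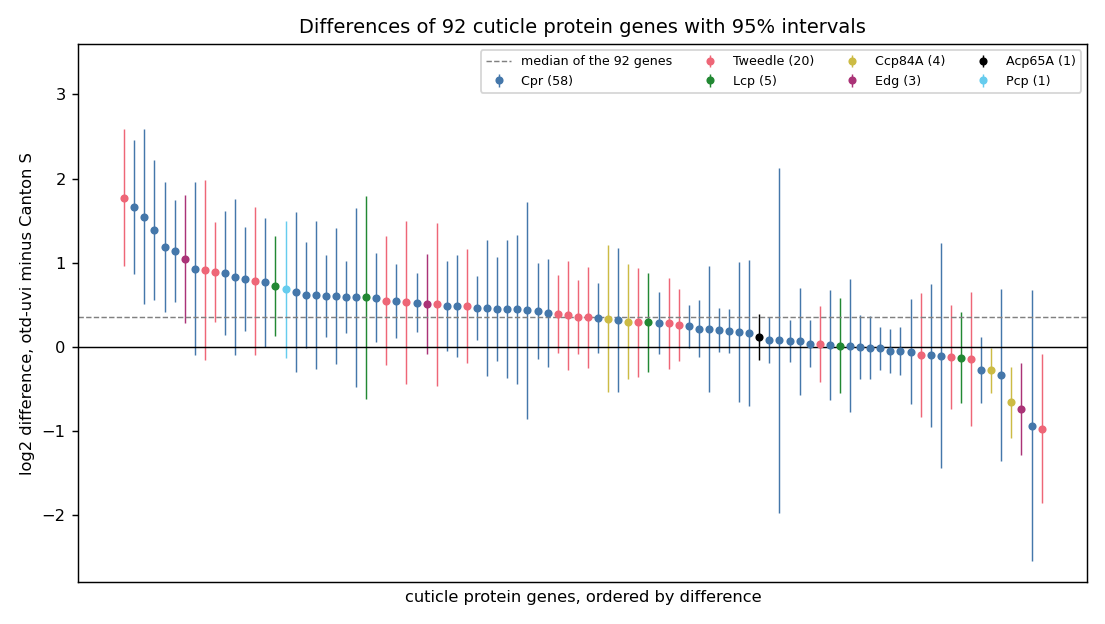
Log2 difference in signal (vertical axis, otd-uvi minus Canton S) for each of the 92 cuticle protein genes, ordered by size and coloured by symbol family, with 95% intervals from limma as bars. The dashed line is the median of the 92 genes, at 0.35, and 74 points lie above 0.

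Arrays of the strains did not overlap for 33 and 4 genes in the upward and downward direction, where 34.0% of all probe sets did not overlap in either direction. In the 33 genes, or 35.9%, every otd-uvi array was above both Canton S arrays, where 18.6% of all probe sets behaved so. In the 4 genes, or 4.35%, every otd-uvi array was below, against 15.4% of all probe sets. The control signals were also higher in otd-uvi, so the genes were split by detection. The split does not take the higher control level out of the signals. The part of that level in the differences was not tested. On every array 64 genes exceeded the brightest control, 7 did so on every array of a single group, 14 on some other set of arrays and 7 on none. Among the 64, the median difference was 0.34 and 25 did not overlap upwards, or 39.1%. Over all 8240 probe sets above the controls on every array the median was -0.04, 45.1% were above 0, and 15.4% did not overlap upwards. Downwards, 4 of the 64 genes did not overlap, where 21.2% of those probe sets did not. At an unadjusted p under 0.05, 12 of the 64 were higher and 4 lower, beside 6.75% and 10.0% of those probe sets. The 28 other genes had a median of 0.39, beside 0.16 for all other probe sets. Set against the Canton S mean, the median of the 64 genes was 0.34, 0.28 and 0.47 on otd-uvi arrays 1, 2 and 3. Adding the 3-prime to 5-prime ratio to the fit, the median over the 92 genes was 0.33.

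Both cuticle genes known to encode corneal lens proteins had overlapping signals in the strains. Cpr72Ec (151927_at), a main protein of the lens, read 5329 and 5182 for Canton S against 5069, 5197 and 5324 for otd-uvi. The groups overlapped almost fully, and the log2 difference was -0.02 (95% interval -0.27 to 0.24). Cpr66D (148417_at), another lens protein, read 476 and 362 for Canton S against 305, 355 and 369 for otd-uvi. Here too the groups overlapped, with a log2 difference of -0.28 (95% interval -0.67 to 0.12), which was -0.08 without Canton S replicate 1 and -0.47 without replicate 2. The other probe set of Cpr66D (148416_at) had a difference of the opposite sign, 0.19 (SE 0.38). The gene retinin, a lens gene outside the symbol rule, varied within both strains, from 40.9 to 222 in Canton S and from 29.0 to 284 in otd-uvi. Beside these values, 4 of 5 measured photoreceptor markers fell, chp, Arr2, inaD and trp, with log2 differences of -1.61, -1.42, -1.26 and -1.07 and limma adjusted p of 0.00968 to 0.0190. The difference between lens and photoreceptor genes was not itself tested.

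Some cuticle genes had nearly the same signal in both strains. The 95% interval lay within 0.5 of 0 on the log2 scale for 12 of the 92 genes, and 9.78% of all probe sets met that bound. Of these 12, 10 were among the 31 cuticle genes in the top 10% of all probe sets by mean signal, a class in which 467 of 1397 probe sets met it. Acp65Aa (143942_at), the adult cuticle gene of the 65A cluster, read 6685 and 6343 for Canton S against 7148, 6643 and 7452 for otd-uvi, a log2 difference of 0.12 (95% interval -0.15 to 0.39). Its lowest otd-uvi array lay between the Canton S arrays. Cpr64Aa, a CPR gene, read 7767 and 7676 for Canton S against 7888, 7170 and 7342 for otd-uvi, a log2 difference of -0.05 (95% interval -0.32 to 0.22). Its otd-uvi arrays lay on both sides of the Canton S arrays. The other CPR genes above the controls with such intervals were Cpr72Ec, Cpr62Bc, Cpr64Ac, Cpr64Ad, Cpr76Bd, Cpr50Cb, Cpr56F and Cpr97Eb, with differences from -0.05 for Cpr97Eb to 0.20 for Cpr62Bc. Cpr67Fa2 and TwdlW also met the bound, but both were under the brightest control on every array. No saturation calls were available, so a compressed response of the brightest probe sets was not tested. The genes with narrow intervals, apart from Acp65Aa, were chosen after their values were seen.

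Genes first known from the ecdysone response of imaginal discs, which form the pupal cuticle, had differences of both signs. Edg78E (143140_at) read 29.3 and 14.1 for Canton S against 44.5, 58.8 and 50.9 for otd-uvi. All otd-uvi arrays were higher, with a log2 difference of 1.04 (SE 0.32, limma adjusted p = 0.221). Without Canton S replicate 2 the difference was 0.67. Edg84A (143141_at) read 53.5 and 61.8 against 76.0, 72.7 and 111, again without overlap, a log2 difference of 0.51 (SE 0.25, limma adjusted p = 0.405). Edg91 (143480_at), which encodes a glycine-rich cuticle protein, read 159 and 227 for Canton S against 118, 129 and 89.4 for otd-uvi. It was lower on every otd-uvi array, with a log2 difference of -0.74 (SE 0.23, limma adjusted p = 0.224), and -0.49 without Canton S replicate 2. Pcp (143295_at), a pupal cuticle protein gene that lies within an intron of another gene, read 164 and 67.5 for Canton S against 153, 164 and 213 for otd-uvi. Only the second Canton S array was low, and the difference of 0.68 (SE 0.35, limma adjusted p = 0.412) was 0.09 without it.

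Larval cuticle genes of the Lcp group were mostly near the controls in these heads. Lcp65Ac (143938_at) was well above them, at 963 and 715 for Canton S against 624, 696 and 1003 for otd-uvi, a log2 difference of -0.13 (SE 0.23, limma adjusted p = 0.823). The groups overlapped, and the difference was 0.08 without Canton S replicate 1. Lcp65Aa (143939_at) had a difference of 0.29 with overlapping groups. The remaining 3, Lcp65Ad, Lcp65Af and Lcp9, did not exceed the brightest control on every array of either group.

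The Tweedle family held both ends of the range. Twdlbeta (147042_at) read 653 and 299 for Canton S against 1130, 1628 and 1960 for otd-uvi. The lowest otd-uvi array was well above the higher Canton S array, and means were 476 ± 249.7 (SD, n = 2) and 1573 ± 418 (SD, n = 3). The log2 difference was 1.77 (SE 0.35, limma adjusted p = 0.0856), the largest of the 92 genes, and it was 1.22 without Canton S replicate 2 and 2.33 without Canton S replicate 1. When the dimmest 40% of probe sets were left out before the fit, the adjusted p of Twdlbeta was 0.0336, and over all alternatives it ranged up to 0.350. TwdlE (145989_at) had the lowest difference, with signals of 84.9 and 80.0 for Canton S against 24.5, 32.2 and 66.4 for otd-uvi. All 3 otd-uvi arrays were lower, array 3 the least so, giving -0.97 (SE 0.38, limma adjusted p = 0.293). TwdlM (150662_i_at) read 395 and 389 for Canton S against 1068, 587 and 632 for otd-uvi. Its Canton S arrays were nearly equal and its otd-uvi arrays all higher, with a log2 difference of 0.89 (SE 0.25, limma adjusted p = 0.190). The other TwdlM probe set (150663_r_at) had a difference of 0.15 (SE 0.39). Its suffix, like that of the first, marks a set whose probes did not meet all the array's design rules.

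TwdlF (153953_at) read 12.2 and 25.8 for Canton S against 76.0, 30.4 and 28.8 for otd-uvi, with array 1 far above the rest. Its log2 difference of 0.91 (SE 0.45, limma adjusted p = 0.404) was 0.53 without that array. TwdlD (150674_at), the gene whose dominant mutants gave the family its name, read 64.2 and 65.8 against 44.3, 66.8 and 69.4, a difference of -0.12 (SE 0.26, limma adjusted p = 0.861). The TwdlP signals (150664_at) were 21.0 and 11.0 against 20.9, 9.04 and 11.3, close to the controls, with a difference of -0.15 (SE 0.34, limma adjusted p = 0.868). Of the 20 Tweedle genes 16 were above 0, the median was 0.37, and 10 had every otd-uvi array above both Canton S arrays, as 18.6% of all probe sets did. By detection, 11 exceeded the brightest control on all 5 arrays.

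**Figure D2:**
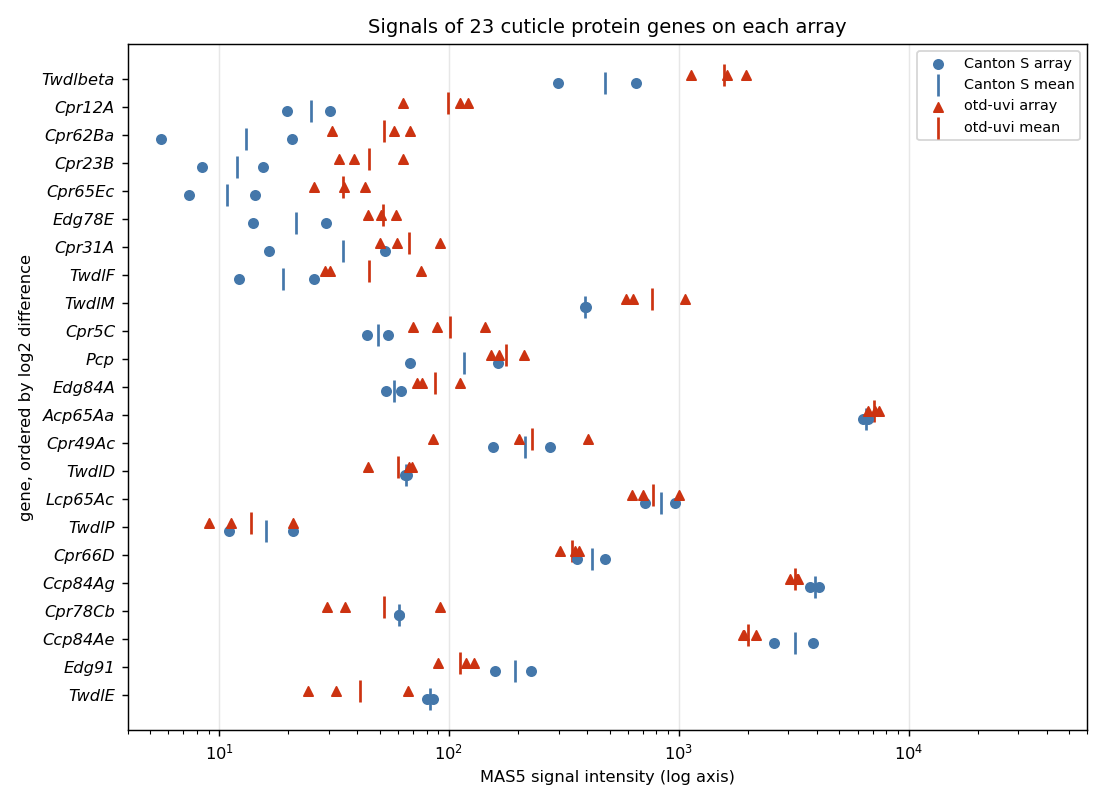
Signal on each array (horizontal log axis, MAS5 intensity) for 23 named cuticle genes, with circles for the 2 Canton S arrays, triangles for the 3 otd-uvi arrays and ticks for group means. Triangles lie right of both circles for Twdlbeta and Cpr12A and left of them for TwdlE, Edg91 and Ccp84Ae.

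Among the Cpr genes the largest differences were upwards and mostly at low signal. Cpr12A (145015_at) read 30.4 and 19.8 for Canton S against 62.8, 112 and 121 for otd-uvi, without overlap. Its log2 difference was 1.66 (SE 0.34, limma adjusted p = 0.0912). Over the alternatives its adjusted p ranged from 0.0336 to 0.404. Like Twdlbeta it passed, at 0.0336, when the dimmest 40% of probe sets were left out. That fit kept 65 of the 92 genes and called 2.48% of its probe sets, 0.979% as higher in otd-uvi. Probe sets were kept by their mean over all 5 arrays, and Cpr12A averaged 25.1 in Canton S against 98.7 in otd-uvi. It was thus kept through its otd-uvi signals, so its call there adds no support. Twdlbeta and Cpr12A were the only 2 of the 92 genes called under any alternative. Cpr62Ba (148006_at) read 20.7 and 5.57 against 57.5, 30.8 and 67.5, and Canton S replicate 2 was under the brightest control. The difference was 1.55 (SE 0.44, limma adjusted p = 0.194), and 1.01 without that array. Cpr23B (145673_at) and Cpr65Ec (148303_at) also had 1 Canton S array under the brightest control. Their differences were 1.39 (SE 0.35) and 1.18 (SE 0.33), with limma adjusted p of 0.151 and 0.184. Cpr62Ba, Cpr23B and Cpr65Ec were above the controls on every array of otd-uvi only, and were named through that group. Cpr65Az, at 1.14, and Cpr76Ba, at -0.94, were above them on every array of neither group and so were not ranked. Cpr5C (144553_at) was above the controls throughout, at 54.4 and 44.1 against 70.0, 144 and 89.0, with a difference of 0.88 (SE 0.32, limma adjusted p = 0.267). The lowest otd-uvi array was above both Canton S arrays.

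Some smaller differences had smaller errors. Cpr76Bb (149056_at) read 1395 and 1323 for Canton S against 1731, 1870 and 2323 for otd-uvi, a log2 difference of 0.53 (SE 0.15, limma adjusted p = 0.194). Cpr47Ea (146995_at) read 1149 and 826 against 1304, 1433 and 1709, with 0.59 (SE 0.18, limma adjusted p = 0.219), and 0.36 without Canton S replicate 2. Cpr92F (150273_at) read 1596 and 1370 against 2442, 1829 and 1907, with 0.46 (SE 0.16, limma adjusted p = 0.255). In all 3, chosen after their values were seen, the groups did not overlap. None of the 58 Cpr genes had every otd-uvi array below both Canton S arrays, while 20 had every one above, beside 15.4% and 18.6% of all probe sets. Their median was 0.41, and 48 were above 0. Of the named Cpr genes with a negative difference, Cpr78Cb (149171_at) had equal Canton S signals of 60.7 and otd-uvi signals of 29.5, 35.4 and 91.9, a difference of -0.33 (SE 0.43, limma adjusted p = 0.748). Cpr49Ac (141397_at) ranged from 85.6 to 401 within otd-uvi, and its difference of -0.10 (SE 0.57, limma adjusted p = 0.948) changed sign in 5 of 13 alternative settings.

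Of the 4 Ccp84A genes, CPR genes next to Edg84A, 2 had lower signals on every otd-uvi array. So did 15.4% of all probe sets, and 21.2% of those above the controls on every array. Ccp84Ae (143511_at) read 2600 and 3837 for Canton S against 2174, 1895 and 1929 for otd-uvi. Every otd-uvi array was lower, with a log2 difference of -0.66 (SE 0.18, limma adjusted p = 0.177), and it was -0.38 without Canton S replicate 2. Ccp84Ag (143509_at) read 4086 and 3712 against 3056, 3276 and 3287, also without overlap, with -0.28 (SE 0.11, limma adjusted p = 0.313). The other 2, Ccp84Ad and Ccp84Ac, had differences of 0.30 and 0.34 with overlapping groups, and were at -0.02 without Canton S replicate 1 and at -0.17 without Canton S replicate 2, respectively. The Ccp84Ad probe set is of a kind that can hybridise to several members of a family.

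Most cuticle genes had other members as close neighbours. Runs of members with at most 5 other protein-coding genes between them, by the RefSeq gene order, held 68 of the 92 genes in 16 runs. In the run around 78C, Cpr78Ca was at 0.83, Cpr78Cb at -0.33, Edg78E at 1.04 and Cpr78Cc at 0.62 on the log2 difference scale, with overlapping 95% intervals. Without 1 array Cpr78Ca ranged from 0.29 to 1.37, Cpr78Cb from -0.77 to -0.06 and Cpr78Cc from -0.08 to 1.32. In the 84A run, differences went from -0.66 for Ccp84Ae to 0.51 for Edg84A, while all 5 of its genes were above the controls on every array. The 64A run held 4 genes above the controls on every array, 3 of them with differences of -0.05 to 0.18 and Cpr64Ab at 0.60. Without Canton S replicate 2, Cpr64Ab was at 0.01. The 7 genes at 47E, 5 of them above the controls on every array, ranged from -0.10 for Cpr47Eg to 0.81 for Cpr47Ee, with 6 above 0. The longest run, 11 Tweedle genes from TwdlM to TwdlQ, had a median of 0.35 and a range of -0.15 for TwdlP to 0.89 for TwdlM. Of these 11 genes 5 were above the controls on every array. TwdlP ranged from -0.45 to 0.16 without 1 array, and the other TwdlM probe set was at 0.15. Differences between neighbours were not tested.

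**Figure D3:**
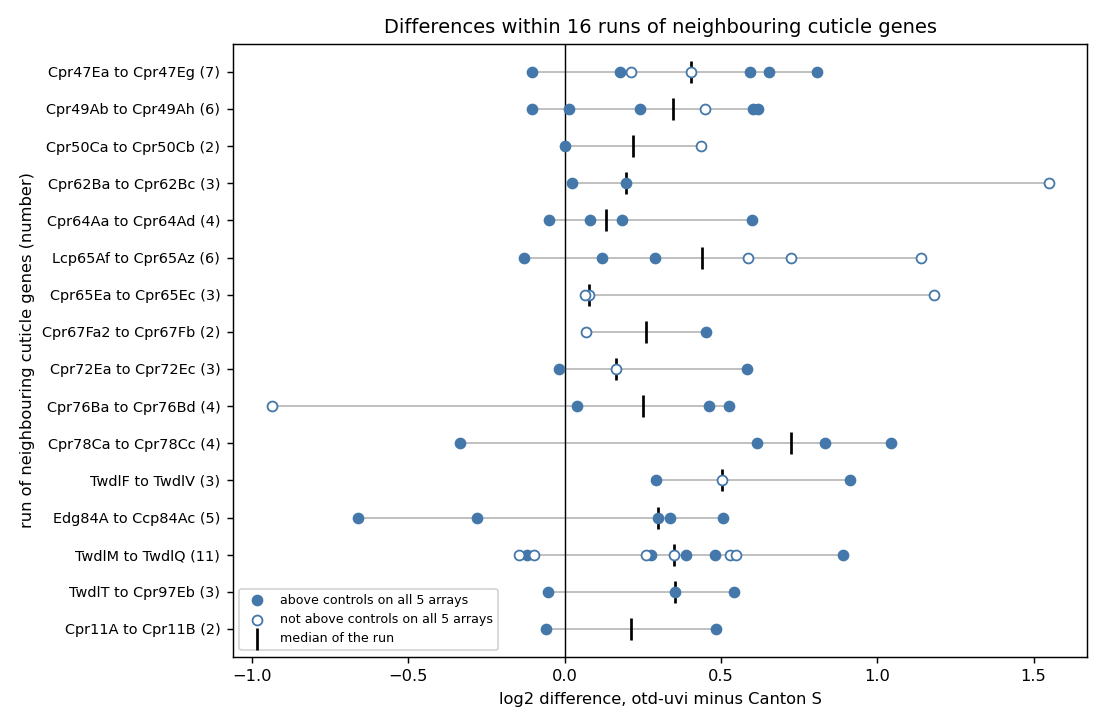
Log2 differences (horizontal axis, otd-uvi minus Canton S) of the 68 cuticle genes that lie in 16 runs of neighbouring members, 1 row a run, with the number of genes in brackets. Filled points exceeded the controls on all 5 arrays, and ticks are the median of a run. Most runs, among them those at 78C and 84A, span values on both sides of 0.

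The 2 Canton S arrays differed from each other for many cuticle genes. Canton S replicate 1 was higher than replicate 2 for 60 of the 92 genes, or 65.2%, against 55.7% of all probe sets. The log2 gap exceeded 0.5 in that direction for 20 genes, 21.7% against 15.1% of all probe sets, and in the opposite direction for 13, 14.1% against 9.75%. In 20 genes, or 21.7%, replicate 2 was the lowest of the 5 arrays while replicate 1 lay inside the otd-uvi range. That pattern was shown by 13.9% of all probe sets, and 12 of the 20 genes were above the controls on all 5 arrays. The mirror pattern, with replicate 1 lowest and replicate 2 inside the otd-uvi range, was shown by 7 of the 92 genes and 7% of all probe sets. Cpr64Ab (148155_at) read 1845 and 809 for Canton S against 1454, 1914 and 2294 for otd-uvi. Cpr78Cc (149172_at) read 738 and 275 against 574, 743 and 789. Cpr92A (150203_at) read 415 and 189 against 406, 456 and 605. In these 3 genes, chosen after their values were seen, Canton S replicate 1 lay among the otd-uvi arrays, and only replicate 2 was low. Their log2 differences of 0.60, 0.62 and 0.77 were 0.01, -0.08 and 0.21 without replicate 2. Cpr31A (146118_at), at 52.5 and 16.5 against 59.7, 50.2 and 91.9, had a difference of 0.93 (SE 0.44, limma adjusted p = 0.379) and one of 0.28 without replicate 2. The widest gaps were those of Cpr65Ea, at 6.06 and 147 in Canton S, and Cpr76Ba, at 4.52 and 71.2, where replicate 1 was under the brightest control. Differences of Cpr65Ea ran from -1.65 to 1.81, and of Cpr76Ba from -2.27 to 0.40, when 1 array was left out.

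**Figure D4:**
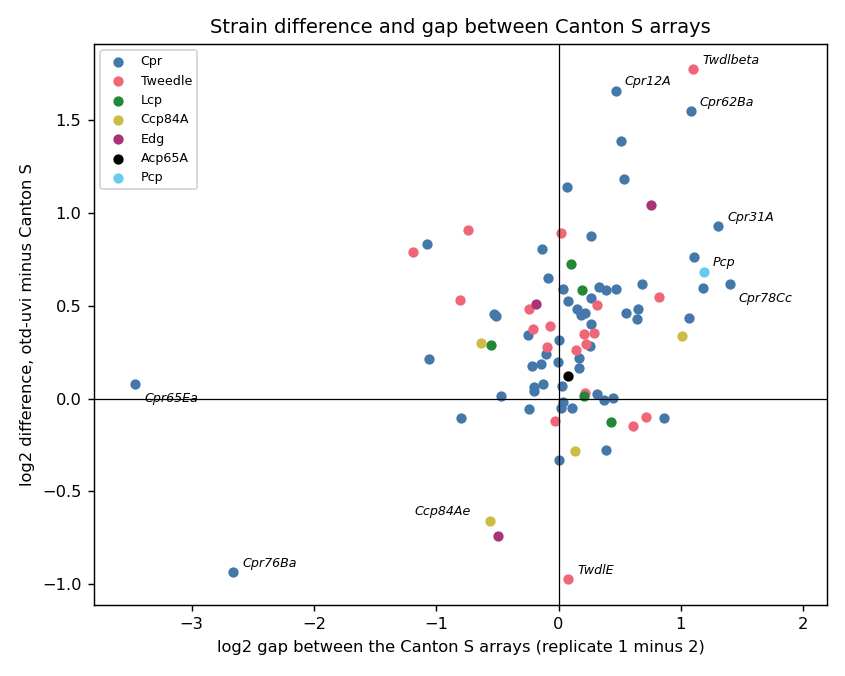
Log2 difference between strains (vertical axis, otd-uvi minus Canton S) against the log2 gap between the Canton S arrays (horizontal axis, replicate 1 minus 2) for the 92 genes, coloured by symbol family; both axes use the Canton S arrays. Cpr31A, Pcp and Cpr78Cc lie far to the right, where replicate 2 was low, and Cpr65Ea and Cpr76Ba far to the left.

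Among the 108 measured genes of 5 lists of other cuticle machinery 1 was called, or 0.926%, near the 0.773% of all probe sets. Of 28 measured genes of chitin synthesis, turnover and assembly, Idgf6 (154031_at), of a family of chitinase-like growth factors, fell, at 1438 and 1216 for Canton S against 593, 524 and 461 for otd-uvi, a log2 difference of -1.32 (limma adjusted p = 0.0193). Another member of that family, Idgf5, was at 0.97, reb, which acts in chitin deposition, at -1.21, and the chitinase gene Cht10 at 0.74, none past the threshold. The median of the list was 0.04. The chitin synthase gene kkv, chosen after its value was seen, was at 0.03. Of 23 chitin-binding and other cuticle proteins outside the symbol rule 0 passed by limma, 3 were under 0.05 unadjusted, where 15.0% of all probe sets were, and their median stood at 0.16. Peritrophin-A was at 1.11, the mucin-related gene Mur18B at 1.06 and l(3)mbn at -0.78, its otd-uvi signals all being under the brightest control. The gene of the elastic protein resilin, chosen after its value was seen, was at 3406 and 3620 for Canton S against 2042, 2431 and 2333 for otd-uvi, a log2 difference of -0.63 (limma adjusted p = 0.0856).

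Genes of the apical matrix with ZP domains numbered 10, with 0 calls by limma, 2 at an unadjusted p under 0.05, against 15.0% of all probe sets, and a median of 0.23. The gene dyl, which shapes bristles and other apical extensions, was at 24.5 and 21.2 for Canton S against 81.3, 54.8 and 81.4 for otd-uvi, a difference of 1.37 (limma adjusted p = 0.0930). The sensory-organ matrix gene nompA was at 0.60 and zye at -0.57. Of 26 tanning and cross-linking genes 0 passed by limma, 5 were under 0.05 unadjusted (15.0% of all probe sets were), and the list had a median of 0.13. The prophenoloxidase genes PPO2 and PPO3, which blood cells express, were at 1.79 and 1.65, and t (tan) at -0.84. PPO3 signals of 9.66 and 8.62 in Canton S were at the level of the controls, which were themselves higher in otd-uvi. Of the 3 measured hemocyte markers NimC1 rose (limma adjusted p = 0.0242), although both Canton S signals, 2.05 and 2.48, were under the brightest control. The other markers had opposite signs, Pxn at 0.62 and Hml at -0.31, neither past the threshold. The summed signal of the 3, which weighs the brighter probe sets most, was 276 to 291 in Canton S and 334 to 438 in otd-uvi. The part of hemocytes in the prophenoloxidase values was not tested. Of 21 regulators of cuticle genes 0 passed by limma, 1 was under 0.05 unadjusted, with the same background of 15.0%, and the list had a median of 0.02. That was ftz-f1, which encodes a nuclear receptor that activates Edg genes in prepupae, at 429 and 549 for Canton S against 243, 302 and 159 for otd-uvi, a difference of -1.07 (limma adjusted p = 0.147). EcR was at -0.73 and Eip93F at 0.54.

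Epidermal markers were measured beside these genes, since the epidermis makes the cuticle. Of 5 markers 4 were above 0, and sha, which forms epidermal hairs, was at 1.29 (limma adjusted p = 0.151), with 1 of its Canton S signals, 2.67, under the brightest control. Over all probe sets 55.2% were above 0, and the marker mwh was under the controls on every array. Their summed signal was 247 to 271 in Canton S and 263 to 328 in otd-uvi. Such sums weigh the brightest probe sets most, for the epidermis that of sn, whose log2 difference was -0.10. The summed signal of the 5 photoreceptor markers was 11228 to 12216 in Canton S and 5203 to 6239 in otd-uvi, and that of the 4 neuronal markers 751 to 875 and 293 to 493. The part of a different tissue make-up in the cuticle values was not tested.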

How the data were processed

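Gene expression was measured on 1 Affymetrix array per sample. The authors deposited linear signal intensities made with MAS5, per the submitters' processing notes; its version, settings, scaling and detection calls are not given in the sources used here. Array medians were 39.96 to 43.1. The annotation table gives 1 gene symbol to 12443 probe sets, several to 327 and none to 1196, and 12394 of the first kind matched the RefSeq gene table (Release 6) by gene ID, which served for names and gene order only. After 44 control probe sets were removed, limma 3.58.1 (in R 4.3.3, lmFit and eBayes, trend by intensity) was run on log2(signal + 8), 8 being the 20th percentile of signals as a whole number, with Benjamini-Hochberg adjustment over 13966 probe sets and a threshold of 0.05. This scale understates changes of dim genes. Python 3.11.15 made the summaries. The p-values measure only the spread between these extractions.

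The members and lists were chosen with earlier results of these data known. Named genes were any member called, the 10 largest positive and 10 largest negative differences among the 71 members above the controls on every array of a group, and the Edg, Acp65A and Pcp members; per list, called genes and up to 3 others with the largest differences. Others are marked in the text, or are named as members of a run or as the rest of a small family, also with their values known. Sequences, the split by consensus type and promoter motifs were not analysed here, nor was Cpr, the P450 reductase gene. Alternatives were quantile and cyclic loess normalization, a larger pseudocount (4 times), removal of the dimmest 40% of probe sets, no trend, a replicate block, a covariate for the 3-prime to 5-prime ratio, each array left out, and all probe sets of a gene averaged.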

Additional observations from a re-analysis of the deposited data

How the results depend on the processing

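The count of cuticle genes past the threshold was 0 in 12 of 13 alternatives. It was 2 (Twdlbeta and Cpr12A) when the dimmest 40% of probe sets were left out, where fewer probe sets were tested. Cpr12A was kept in that fit through its otd-uvi signals. The median difference of the members was above 0 in every alternative, at 0.22 with the larger pseudocount, 0.30 under both quantile and cyclic loess normalization, and 0.27 to 0.36 without 1 array. Members with an unadjusted p under 0.05 numbered 10 to 23 higher and 2 to 4 lower without 1 array. Over all probe sets, calls numbered 108, and 208 without the dimmest 40%, 8 with the 3-prime to 5-prime covariate and 2 to 22 without 1 array. With the replicate number as a block, in which otd-uvi replicate 3 has no partner and adds nothing to the difference, 1 probe set and 0 members were called, 11 members had an unadjusted p under 0.05 and were higher, and the members' median was 0.29. The replicate numbers share only a number: deviations of same-numbered arrays correlated at -0.0045 and 0.12. Of 23 named genes 19 kept their sign in every alternative. Cpr49Ac was at 0.029 under quantile normalization, 0.015 under cyclic loess and 0.44 with the covariate, and TwdlP at 0.11 with the covariate. Without 1 array Cpr49Ac ranged from -0.62 to 0.44, TwdlP from -0.45 to 0.16, Lcp65Ac from -0.34 to 0.084 and TwdlD from -0.22 to 0.060. The cause of these changes was not tested. A fit with a single Canton S array takes its spread from otd-uvi.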

Other observations

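Probe sets that name several genes, at least 1 of them with such a symbol, were not counted among the 92 genes. There were 7, and none passed by limma. The one shared by Obp57d, an odorant-binding protein gene, and Cpr57A (152220_at) had signals of 269 and 313 for Canton S against 213, 221 and 229 for otd-uvi. Its otd-uvi arrays were all lower, with a log2 difference of -0.38 (SE 0.15, limma adjusted p = 0.290, unadjusted p = 0.0347), the lowest p of the 7. The one shared by Lcp65Ag1, Lcp65Ag2 and Lcp65Ag3 (143935_s_at), larval cuticle genes of near-identical sequence, read 169 and 374 for Canton S. It read 149.8, 88.8 and 209 for otd-uvi, a log2 difference of -0.80 (SE 0.42, limma adjusted p = 0.422). Another, shared by Lcp65Ag1 and Lcp65Ag2 (141314_at), had the opposite sign, at 0.09 (SE 0.34). The one shared by Ccp84Aa and Ccp84Ab was at 0.15, by TwdlL and TwdlB at -0.34, and by Cpr65Av and Cpr65Aw at 0.13. A second probe set was present for 6 members, and the pair differed in sign for Cpr66D alone.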
